A study of Mus musculus with 70 samples.

Results

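Tnfsf13b, Ppef1, Samsn1 and Postn were described here as a set of 4 genes among 21154 gene symbols and 55681 probes on the array. Each of these genes was read by 1 probe, the only one matched to it by transcript accession. They were chosen by name because the study took them from published work on RENCA cells in which the VHL gene was knocked out, and called them targets of Hif1a. RENCA is a mouse renal adenocarcinoma line with an intact VHL gene, and here it also carried GFP. The question was at which in vivo passage each gene rose, in which route, and whether the genes rose in the same samples. Transcripts were measured on 70 single-colour arrays of 65 RNA samples. P0 was the GFP-RENCA line before any passage (2 RNA samples). KPT lines were injected under the kidney capsule and recovered from the kidney tumour, T-LM lines were injected into the tail vein and recovered from lung metastases, and K-LM lines were injected under the kidney capsule and recovered from lung metastases. From P1 to P6 the numbers of RNA samples were 5, 2, 2, 3, 5 and 5 for KPT, 5, 2, 3, 4, 6 and 4 for T-LM, and 1, 1, 5, 3, 4 and 3 for K-LM. All mice were young female BALB/c of wild type, and no group received a drug or an edit of VHL. The methods state that recovered cells were cultured for about 2 weeks until no GFP-negative cell was seen, so the samples are cultured lines started from mice, while the label protocols speak of homogenised samples. All routes were compared with the same 2 P0 samples, which come from 1 parental line. The study states that recovered cells were implanted again for the next passage, with several mice per route and passage. Later passages of a route therefore descend from earlier ones, and their comparisons with P0 are not independent. The sources do not say which sample gave rise to which later one, so p-values measure the spread between these samples.

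In normoxia the VHL protein, part of a ubiquitin ligase, binds the hydroxylated alpha subunits of the hypoxia-inducible factors (Hif1a, and Epas1, also called HIF-2alpha) and marks them for degradation. Loss of VHL, the usual lesion of clear cell renal carcinoma, leaves these factors on, and paired with Arnt they bind hypoxia response elements near genes such as Vegfa and Car9. Tnfsf13b encodes BAFF, a cytokine of the TNF family that keeps B cells alive through the receptors Tnfrsf13c, Tnfrsf13b and Tnfrsf17. Ppef1 encodes a serine/threonine phosphatase with calcium-binding EF-hands. Postn encodes periostin, a secreted matrix protein made mostly by fibroblasts that binds integrins containing the alpha v chain. Samsn1 encodes an adaptor protein with SH3 and SAM domains, known from blood cells, where it restrains B cell activation.

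Levels are given as log2 of the array signal minus the 75th percentile of the commonly detected probes of that array, so that 0 is as bright as this percentile. They are not comparable between genes, whose probes differ. The scanner software calls a probe well above background or not, and between 25.2% and 55.2% of all probes passed per array. One slide of 8 arrays was scanned apart from the other 62, with another software version, and is called the late slide here. It held all 3 K-LM P6 samples and the repeat arrays of both P0 samples and of KPT P6 replicates 1, 2 and 4. The first arrays are quoted unless stated otherwise, and fits that involve K-LM or compare routes carry a term for the late slide. The epithelial label was checked on renal epithelial markers: Pax8, Krt8 and Krt18 were well above background in all 65 samples, Pax2 in 0, Lhx1 in 2, Epcam in 4 and Cdh16 in 21. Markers of other cells are given beside the genes they moved with. An adjusted p of 0.01 or less in limma was the threshold for a change.

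The sequence upstream of the starts is shown because the HIF complex recognises short cores, ACGTG or GCGTG, and the question was raised with VHL in view. In the RefSeq promoter table (GRCm38.p6), both strands of the 250 bases before each listed start were searched. Neither core was present in any of the 6 windows of the 4 genes, while 38.6% of all 32851 windows held one. The letters TATAAA, searched on the gene's strand after the sequences had been seen, were found once, beginning 26 bases before the downstream of the 2 listed Postn starts, and in 7.59% of all windows. Below are 1 window each for Tnfsf13b (chr8:10006383-10006632, plus strand), Ppef1 (chrX:160719973-160720222, minus strand) and Postn (chr3:54360857-54361106, plus strand), with TATAAA in capitals. All of these windows lie within the span of their gene in the RefSeq gene table. No core in these windows says nothing of more distant sites.
Tnfsf13b: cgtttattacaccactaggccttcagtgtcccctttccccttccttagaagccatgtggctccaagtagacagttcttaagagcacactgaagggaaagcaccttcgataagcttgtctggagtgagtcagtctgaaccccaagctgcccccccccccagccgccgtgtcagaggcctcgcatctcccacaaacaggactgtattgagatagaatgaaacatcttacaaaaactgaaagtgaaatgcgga
Ppef1: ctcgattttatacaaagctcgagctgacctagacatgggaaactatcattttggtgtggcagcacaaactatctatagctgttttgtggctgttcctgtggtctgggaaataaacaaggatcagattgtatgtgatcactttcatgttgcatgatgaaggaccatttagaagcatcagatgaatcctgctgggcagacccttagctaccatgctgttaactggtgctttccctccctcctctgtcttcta
Postn: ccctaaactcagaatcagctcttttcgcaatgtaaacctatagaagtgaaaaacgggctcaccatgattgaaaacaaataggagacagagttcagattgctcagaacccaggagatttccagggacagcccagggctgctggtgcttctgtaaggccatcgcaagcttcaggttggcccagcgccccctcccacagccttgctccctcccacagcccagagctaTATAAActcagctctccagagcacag

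Tnfsf13b rose at the first passage in all 3 routes and stayed high. At P0 its levels were -8.42 and -8.03, and none of the 4 P0 arrays was well above background. At KPT P1 the 5 samples read -6.78, -6.42, -5.76, -4.79 and -5.32, of which 3 were well above background. At T-LM P1 they read -3.65, -4.29, -3.99, -3.16 and -3.37, and the single K-LM P1 sample read -2.97. Every P1 sample therefore lay above both P0 samples, and the KPT samples lay below all P1 samples of the lung routes. At P2 the KPT samples had reached -3.79 and -3.54, T-LM stood at -3.91 and -3.54, and K-LM at -4.00.
From P2 to P6 Tnfsf13b was well above background in every sample of every route, between -5.11 (K-LM P4 replicate 1) and -2.44 (T-LM P5 replicate 4). At P6 the KPT levels were -3.01, -2.86, -2.86, -2.85 and -2.86, the T-LM levels -3.30, -3.10, -3.01 and -3.13, and the K-LM levels -3.19, -3.55 and -2.81. The routes overlapped at P6 and no P6 sample came near P0.

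Fitted against P0, Tnfsf13b rose by 2.41 ± 0.34 on the log2 scale at KPT P1 (SE, adjusted p = 0.000189), by 4.53 ± 0.32 at T-LM P1 (adjusted p = 1.99e-08) and by 5.37 ± 0.69 at K-LM P1 (adjusted p = 2.81e-05), where 1 sample stands for the group and its spread is borrowed from the rest. Because P0 was at background, the bounds are at least 1.10-fold, 4.80-fold and 12.6-fold. The KPT P1 call was the least secure of these. Without P0 replicate 1 the change was 2.22 and missed the threshold, and with dim values raised to a floor it was -0.10. On that floor the P1 rise of Ppef1 was also lost in KPT (1.77, adjusted p = 0.0233) and T-LM (1.29, adjusted p = 0.0816). At P2 the rises were 4.56 ± 0.20, 4.50 ± 0.37 and 4.34 ± 0.70 in KPT, T-LM and K-LM, and at P6 they were 5.34 ± 0.17 (adjusted p = 5.86e-12, at least 8.37-fold), 5.09 ± 0.32 (adjusted p = 2.04e-09, at least 7.06-fold) and 5.16 ± 0.52 (adjusted p = 1.37e-07, at least 10.8-fold).
Between P1 and P6 Tnfsf13b rose by a further 2.92 ± 0.26 in KPT (adjusted p = 1.96e-07). In T-LM the same change was 0.56 ± 0.26 (adjusted p = 0.141), and in K-LM it was -0.21 ± 0.70 (adjusted p = 0.951). With the index of RNA integrity as a covariate the T-LM change was 1.10 and passed (adjusted p = 0.0035). Whether KPT P1 differed from T-LM P1 was not tested.

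Ppef1 also rose at P1, in every sample, and then climbed more slowly. P0 levels were -7.85 and -7.79, with no P0 array well above background. The KPT P1 levels were -4.83, -4.42, -3.09, -2.56 and -3.31, those of T-LM P1 were -2.87, -4.66, -3.27, -4.42 and -5.42, and that of K-LM P1 was -3.49. All 11 P1 samples were well above background and none overlapped P0, but they spread over more than a log2 unit within both KPT and T-LM (SD 0.95 and 1.04, n = 5 each).
By P6 this spread had narrowed. KPT read -1.95, -2.05, -2.04, -1.61 and -2.28 (SD 0.24, n = 5), T-LM read -1.63, -1.61, -1.57 and -1.77 (SD 0.09, n = 4), and K-LM read -2.23, -1.89 and -1.78 (SD 0.23, n = 3). From P2 to P5 all samples lay between -3.26 and -1.21.

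The fitted rise of Ppef1 from P0 to P1 was 4.18 ± 0.46 in KPT (SE, adjusted p = 2.18e-05, at least 4.97-fold), 3.69 ± 0.50 at T-LM P1 (at least 3.55-fold, adjusted p = 9.58e-05) and 4.26 ± 0.41 in K-LM (adjusted p = 5.6e-07, at least 8.36-fold). At P6 it was 5.83 ± 0.33 (adjusted p = 5.38e-09, at least 15.7-fold), 6.18 ± 0.37 (adjusted p = 1.24e-09, at least 19.8-fold) and 5.78 ± 0.31 (adjusted p = 2.73e-12, at least 24-fold). Ppef1 thus gained after P1, by 1.66 ± 0.35 in KPT (adjusted p = 0.00217) and by 2.48 ± 0.40 in T-LM (adjusted p = 0.000138). The K-LM gain was 1.51 ± 0.42 and did not pass (adjusted p = 0.0663). With the RNA index as a covariate the KPT gain was 1.60 and no longer passed (adjusted p = 0.018). In T-LM the samples of P1 and P6 did not overlap for Ppef1, whereas those of Tnfsf13b did.

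**Figure D1:**
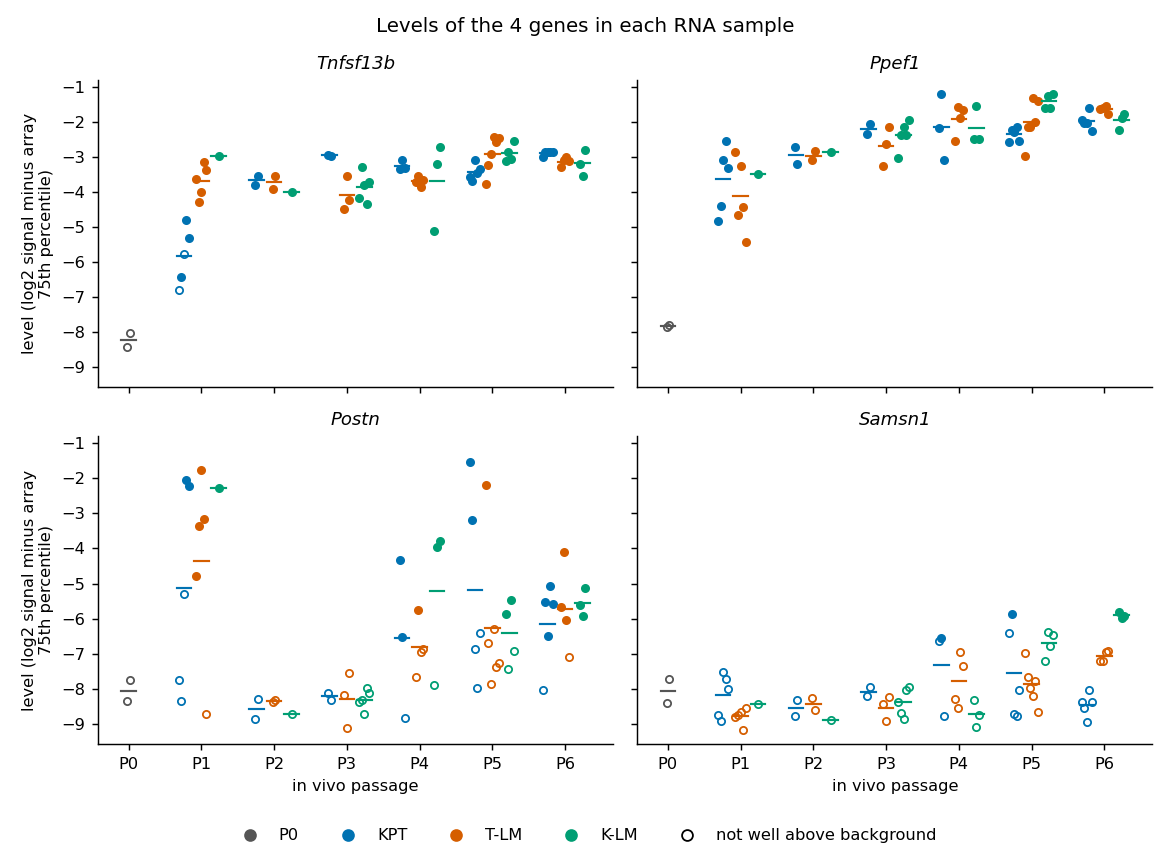
Level of each gene (log2 signal minus the array's 75th percentile, vertical axis) in each RNA sample by in vivo passage (horizontal axis), coloured by route; filled points were well above background, open points were not, and short lines are group means. Tnfsf13b and Ppef1 leave the P0 level at P1 and stay up, Postn is high in part of the P1 samples, low in all P2 and P3 samples and high again in part of the samples from P4, and Samsn1 passes background in 5 samples.

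Postn did not rise steadily in any route. P0 read -8.35 and -7.74, at background. At P1 it was well above background in 2 of 5 KPT samples (-7.76, -8.34, -5.30, -2.06 and -2.21), in 4 of 5 T-LM samples (-4.78, -3.36, -1.75, -3.17 and -8.72) and in the single K-LM sample (-2.27). The low T-LM value belonged to the sample labelled LOT1, whose title gives no route. Within 1 passage and route the samples thus ranged from the P0 level to more than 6 log2 units above it.
At P2 and P3 all 15 samples were at background, between -9.12 and -7.54, and overlapped P0. From P4 Postn returned in part of the samples. KPT P4 read -4.32, -6.53 and -8.83, T-LM P4 -7.65, -5.75, -6.94 and -6.87, and K-LM P4 -7.88, -3.97 and -3.80. At P5, KPT read -1.55, -3.19, -6.87, -7.96 and -6.41, K-LM read -5.85, -7.44, -5.47 and -6.91, and T-LM ranged from -7.85 to -2.19 with a median of -6.98, of which only the highest sample was well above background.
At P6 the share of samples that passed was higher than at P4 and P5 but their levels were moderate. The KPT values were -8.02, -5.53, -6.49, -5.07 and -5.58, the T-LM values -5.66, -4.10, -6.03 and -7.08, and the K-LM values -5.60, -5.92 and -5.12, with 4 of 5, 3 of 4 and 3 of 3 well above background. These shares also depend on array background. The dimmest probe that passed lay between -6.78 and -5.00 on P5 arrays and between -7.08 and -6.27 on first arrays of P6. T-LM P5 replicate 4 failed at -6.29, while KPT P6 replicate 3 passed at -6.49.

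Of the 18 comparisons with P0, 2 passed for Postn, both in K-LM. At K-LM P1 the fitted change was 6.01 ± 1.15 (SE, adjusted p = 0.00132, at least 20.4-fold, 1 sample, and 5.77 with adjusted p = 0.013 without P0 replicate 1). This call was also lost with all groups in 1 model (6.01, adjusted p = 0.0792). At K-LM P6 it was 3.44 ± 0.85 (adjusted p = 0.00853, at least 2.11-fold, higher in 3 of 3 samples). This second call was lost when any single sample of either group was left out (3.10 to 3.67, adjusted p = 0.0169 to 0.123). It was also lost without the late slide term (2.50, adjusted p = 0.0913), and over all 18 alternatives its adjusted p ran from 0.000878 to 0.203. The P6 changes in KPT (1.91 ± 1.40, adjusted p = 0.531) and T-LM (2.33 ± 1.10, adjusted p = 0.208) did not pass. On the arrays of the late slide alone the KPT P6 change was 2.59 and passed in limma (adjusted p = 0.00714). For Postn the repeat arrays of P0 read 1.13 and 1.19 lower than their first arrays. Those of KPT P6 replicates 1, 2 and 4 differed from their first arrays by 0.54, -1.25 and -0.52.
At P1, changes of 2.92 ± 1.68 in KPT (adjusted p = 0.275) and 3.69 ± 1.36 in T-LM (adjusted p = 0.087) did not pass either, but without LOT1 the T-LM change was 4.78 and did (adjusted p = 0.0046). Similarly, the K-LM P4 change of 3.06 ± 0.85 (adjusted p = 0.0167) was 4.39 without K-LM P4 replicate 1 (adjusted p = 3.26e-05). It also passed with normexp background (2.35, adjusted p = 0.00128), with the deposited values (2.61, adjusted p = 0.00102) and with slide as a random block (2.98, adjusted p = 0.00891), so 4 of 17 alternatives made this call.

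Postn followed the markers of fibroblasts from sample to sample. The 8 markers (Pdgfra, Pdgfrb, Col1a1, Col1a2, Col3a1, Dcn, Lum and Thy1) were all at background on the first arrays of both P0 samples. Their summed linear signal, relative to the 75th percentile, was 0.0446 and 0.0479 there. At P1 it was 0.407 to 12.6 in KPT (5 to 7 markers well above background), 0.472 to 18.3 in T-LM (3 to 8 markers) and 21.8 in K-LM (8 markers). At P2 and P3 it lay between 0.141 and 0.891 over all routes, with 1 to 6 markers passing. At P4 it was 0.229 to 3.68 in KPT, 2.32 to 10.7 in T-LM and 0.655 to 16.6 in K-LM, at P5 it was 0.515 to 30.9, 1.78 to 50.8 and 1.85 to 4.54, and at P6 it was 0.507 to 1.33, 2.33 to 7.93 and 1.13 to 3.46.
The group medians of these sums, like the Postn means, were higher at P1 than at P2 and P3 and higher again from P4. The match was not complete. At P2 and P3 Postn was at its P0 level while all sums stayed above those of P0, and Dcn was already up by 5.89 at KPT P2. At T-LM P4 all 8 markers passed in all 4 samples, but Postn passed in 1. After each group's mean was subtracted, the Postn level and the log2 sum of the markers correlated over 63 RNA samples at Pearson r = 0.95 and Spearman rho = 0.87 (permutation test, 2-sided, p = 1e-05 each, the smallest that 100000 resamples can give, and adjusted p = 8e-05 over 8 relations of a gene with a marker list). Without the 2 samples farthest from the median of the marker sum r was 0.94, and over the 47 samples of P3 to P6 it was also 0.94. This relation was chosen after the levels had been seen. For the 8 leukocyte and macrophage markers the Postn correlation was 0.03 (permutation test, adjusted p = 0.874). From P0 to P6, 2 of 7 tested fibroblast markers rose in KPT, with a median change of 4.37, and the lung routes had 6 of 8 (T-LM, median 5.04) and 5 of 8 (K-LM, median 5.41). In KPT, Col1a1 at 4.37 ± 1.90 (adjusted p = 0.223) and Col1a2 at 5.27 ± 1.54 (adjusted p = 0.0499) did not pass. Dcn and Pdgfrb, which encode a collagen-binding proteoglycan and a growth factor receptor, rose from P0 to P6 in all 3 routes, Dcn by 5.30 ± 0.44 (KPT), 7.35 ± 0.66 (T-LM) and 6.28 ± 0.79 (K-LM), and Pdgfrb in the same order by 4.49 ± 0.46, 4.58 ± 0.62 and 4.95 ± 0.55 (largest adjusted p = 3.87e-05). Against background at P0 the bounds were at least 15.2-fold (KPT) and 62.8-fold (T-LM) for Dcn and at least 5.05-fold, 5.39-fold and 8.21-fold for Pdgfrb, and none is given for Dcn in K-LM, since 1 of the 4 P0 arrays of that fit passed. Whether the Postn signal came from other cells or from the tumour cells was not tested, and in such samples more cells of a type and more RNA per cell cannot be told apart.

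**Figure D2:**
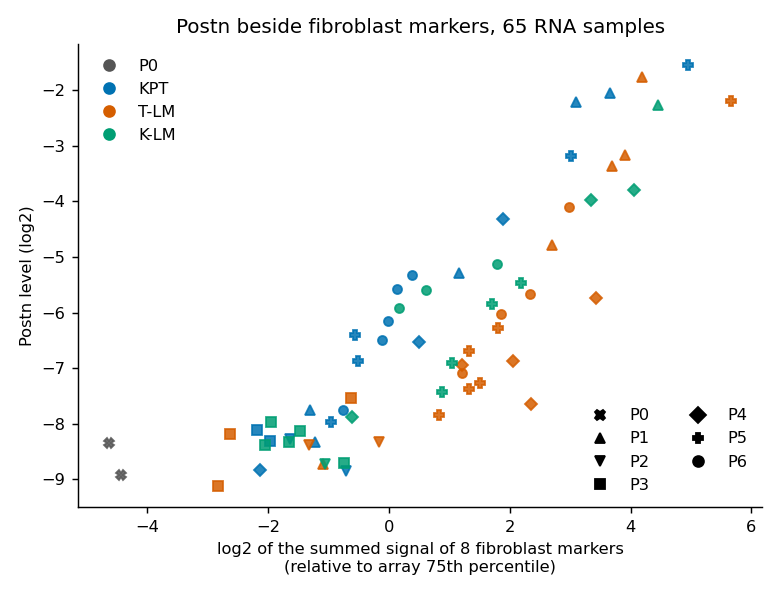
Postn level (log2, vertical axis) against the log2 of the summed signal of 8 fibroblast markers (horizontal axis) in 65 RNA samples, coloured by route with a symbol for each passage, repeat arrays averaged. Samples with high Postn at P1, P4 and P5 are those with high marker sums, while P2 and P3 samples lie low on both axes.

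Samsn1 was dim throughout. It was well above background in 5 of 65 samples, namely all 3 K-LM P6 samples, KPT P4 replicate 3 (-6.56) and KPT P5 replicate 2 (-5.88). P0 read -8.39 and -7.71. The K-LM P5 samples read -7.20, -6.38, -6.78 and -6.46, and the K-LM P6 samples -5.80, -5.99 and -5.92, all above both P0 samples. In K-LM the first 4 passages stayed between -9.09 and -7.94, so that the difference appeared at P5.
In the other routes the last passage did not stand out in this way. KPT P6 read -8.36, -8.55, -8.93, -8.04 and -8.38, overlapping P0, after 2 of 3 P4 samples and 2 of 5 P5 samples had read above both P0 samples (-6.65, -6.56, -6.42 and -5.88). T-LM P6 read -7.20, -7.21, -6.95 and -6.93, above P0 in all 4 samples but well above background in 0.

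The fitted change of Samsn1 from P0 was 2.96 ± 0.49 at K-LM P6 (SE, adjusted p = 0.00016, at least 1.64-fold) and 1.84 ± 0.46 at K-LM P5 (adjusted p = 0.00432), for which no fold is given since both groups were at background. The P5 call was lost without P0 replicate 1 (1.60, adjusted p = 0.0384), without K-LM P5 replicate 3 (1.73, adjusted p = 0.0132) or replicate 6 (1.76, adjusted p = 0.0121), with the RNA index as a covariate (1.11, adjusted p = 0.226), with all groups in 1 model (1.84, adjusted p = 0.012), with the replicate block (1.83, adjusted p = 0.0459) and with the floor (-0.13, adjusted p = 0.817), which makes 7 of 18 alternatives. The P6 call held whichever single P0 or K-LM P6 sample was left out. With dim values raised to the floor it was 0.58 and did not pass (adjusted p = 0.286). In KPT the P6 change was -0.40 ± 0.70 (adjusted p = 0.831), and on the arrays of the late slide alone it was 1.30 and passed (adjusted p = 0.00422). The repeat arrays of P0 read 1.37 and 1.25 lower than their first arrays for Samsn1, and those of KPT P6 between 0.02 and 0.43 higher. In T-LM Samsn1 passed background on fewer than 2 arrays and was left out of the main fits. Its mean was -8.78 at T-LM P1 and -7.07 at T-LM P6, without overlap, and all these samples were at background. With no filter, and with all groups in 1 model, its change from T-LM P1 to P6 passed.
Over 63 samples the deviations of Samsn1 from the group means correlated with the log2 sum of the 8 leukocyte markers at r = 0.36 (permutation test, adjusted p = 0.143). For the fibroblast markers r was 0.44 (adjusted p = 0.0656). The leukocyte sum includes Cd68, Csf1r and Itgam, which passed in all 65 samples, P0 included. Both KPT samples with Samsn1 detected had all 8 leukocyte markers well above background, with sums of 6.28 and 9.12. The 3 K-LM P6 samples had 5. In KPT, P1 replicate 5, P4 replicate 1 and P5 replicate 1 had 8 with Samsn1 not well above background. In T-LM the same held for P4 replicates 3 and 4 and for P6 replicates 2 and 3. KPT P4 replicate 1 and KPT P5 replicate 1 read -6.65 and -6.42 for Samsn1, above both P0 samples. The part of leukocytes was not tested.

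**Figure D3:**
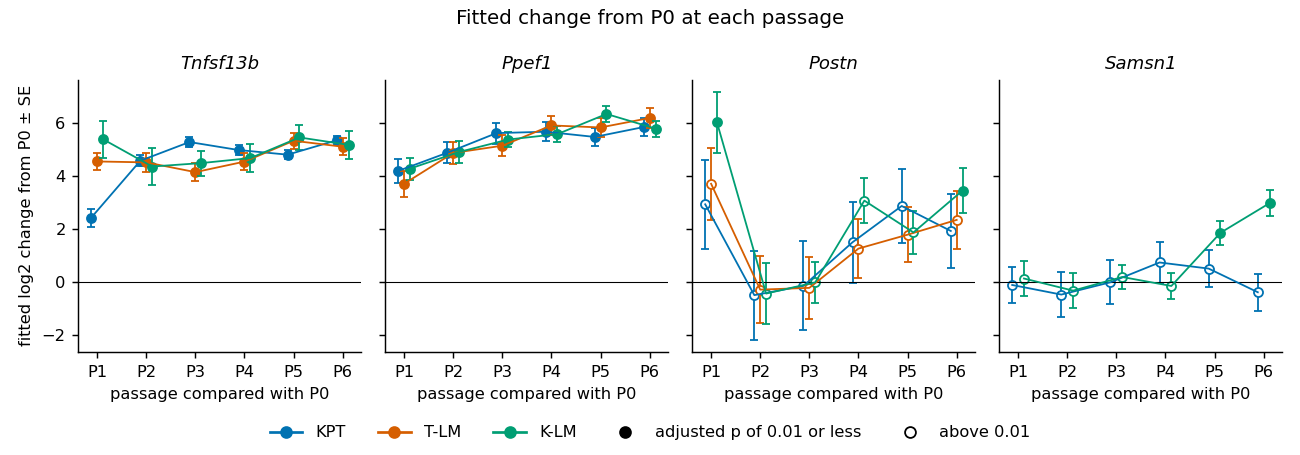
Fitted log2 change from P0 with its SE (vertical axis) at each passage (horizontal axis) for KPT, T-LM and K-LM; filled points passed the threshold of 0.01, open points did not, and Samsn1 was not tested in T-LM. Tnfsf13b and Ppef1 pass at all 18 points, Postn at K-LM P1 and P6, and Samsn1 at K-LM P5 and P6.

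Counted per comparison, 2 of the 4 genes rose from P0 in every KPT passage, always Tnfsf13b and Ppef1. Over all tested probes the share that rose was 3.3% at P1, 0.947% at P2, 2.12% at P3, 2.46% at P4, 3.44% at P5 and 3.43% at P6. In T-LM, 2 of the 3 genes tested rose at every passage, again Tnfsf13b and Ppef1, against shares of 2.17%, 1.25%, 1.47%, 4.01%, 5.63% and 5.98% from P1 to P6. In K-LM the number that rose was 3 of 4 at P1, 2 at P2, P3 and P4, 3 at P5 and 4 at P6, against 4.03%, 0.537%, 4.51%, 4.58%, 8.76% and 4.15% of all tested probes. K-LM P6 was thus the group in which all 4 genes passed. From P1 to P6, 2 of 4 genes changed in KPT (11.6% of all probes in either direction) and 1 of 3 in T-LM (9.36%). In K-LM, where P1 had 1 sample, no gene is counted as changed. The K-LM changes were -0.21 (Tnfsf13b), 1.51 (Ppef1), 2.84 (Samsn1) and -2.57 (Postn).

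The routes were compared directly at P6. Between T-LM and KPT 0 of 4 genes passed in limma, beside 11.6% of all probes. Of the 4 genes 2 had an unadjusted p under 0.05, as had 6382 of 21695 probes. Between K-LM and KPT only Samsn1 passed (16.1% of all probes), and between K-LM and T-LM 0 did (11.9% of all probes). In the latter 1 gene had an unadjusted p under 0.05, as had 7474 of 21695 probes. Samsn1 was higher in K-LM than in KPT by 2.61 ± 0.36 (SE, adjusted p = 5.08e-05, at least 1.91-fold, all 3 samples above all 5). It was higher in K-LM than in T-LM by 1.44 ± 0.43 (adjusted p = 0.0215) and in T-LM than in KPT by 1.17 ± 0.31 (adjusted p = 0.0121), neither past the threshold, and the last pair was at background on both sides.
The route differences of Tnfsf13b were -0.29 ± 0.25 (T-LM minus KPT), -0.34 ± 0.29 (K-LM minus KPT) and -0.04 ± 0.34 (K-LM minus T-LM), and those of Ppef1 were 0.37 ± 0.15, 0.02 ± 0.18 and -0.35 ± 0.21. For Postn they were 0.33 ± 0.55, 1.22 ± 0.64 and 0.89 ± 0.75. None of these 9 passed, which does not show that the routes were alike.

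The genes were then examined for whether they rose together. In both P0 samples 0 of the 4 genes were detected. At P1, 2 of 11 samples had 1 gene, 2 had 2 and 7 had 3. All 5 P2 samples and all 10 P3 samples had 2, always Tnfsf13b and Ppef1. At P4, 5 of 10 samples had 2 genes, 4 had 3 and 1 had 4, at P5 these numbers were 10, 4 and 1 of 15, and at P6 they were 2, 7 and 3 of 12. Detection depends on array background, so the P5 and P6 counts do not have the same limit. Tnfsf13b and Ppef1 were detected together in 61 samples, Ppef1 alone of the pair in 2 (KPT P1 replicates 1 and 3) and neither in 2. Every one of the 27 samples with Postn also had both of them, and all 5 samples with Samsn1 also had Postn.

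**Figure D4:**
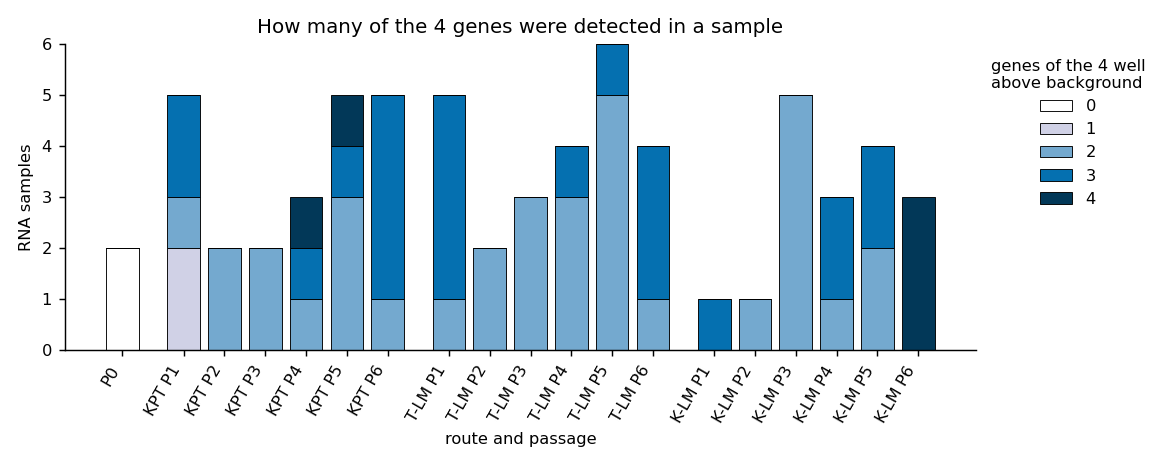
Number of RNA samples (vertical axis) in each route and passage (horizontal axis), stacked by how many of the 4 genes were well above background. P2 and P3 samples all have 2 genes, and all 3 K-LM P6 samples have 4.

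Within groups, the samples high for Tnfsf13b tended to be high for Ppef1. Correlations were read at an adjusted p of 0.05, looser than the 0.01 of the fits, and no pair of the 4 genes reached 0.01. Deviations from the group mean correlated at r = 0.44 and rho = 0.45 over 63 samples (permutation test, 2-sided, adjusted p = 0.0357 and 0.0249 over 6 pairs), at r = 0.39 without the 2 samples farthest from the median, and at r = 0.44 over the 47 samples of P3 to P6 (adjusted p = 0.0391). With dim values raised to the floor r was 0.43 and did not pass (adjusted p = 0.0784). Samsn1 and Postn correlated at r = 0.49 (adjusted p = 0.031) and rho = 0.36 (adjusted p = 0.0662), and with the floor at r = 0.26 (adjusted p = 0.546). Most of these Samsn1 values were at background, and its deviations also correlated at r = 0.51 with the level of the dimmest probe that passed background on the array. The other 4 pairs had r between -0.17 and 0.32, and none passed. Over P3 to P6 alone the pair of Tnfsf13b and Samsn1 had r = -0.35 (adjusted p = 0.0158).
Between groups, the means of Tnfsf13b and Ppef1 over the 19 groups correlated at 0.88, and the other 5 pairs between 0.07 and 0.32. These correlations are descriptions over group means that share the P0 arrays. At P0 Tnfsf13b and Ppef1 were at background, with means of -8.23 and -7.82. Their lowest means in the other groups were -5.81 (KPT P1) and -4.13 (T-LM P1). The 0.88 includes this gap, and a value without P0 was not computed.

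**Figure D5:**
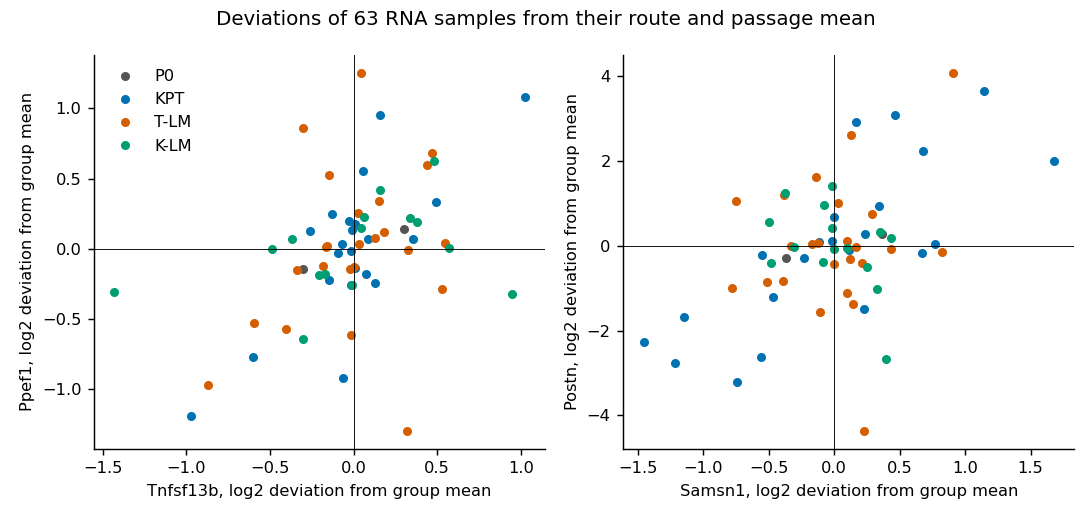
Log2 deviation of each of 63 RNA samples from the mean of its route and passage, for Ppef1 against Tnfsf13b (left) and Postn against Samsn1 (right), coloured by route. The points scatter in both panels, with r = 0.44 (left) and 0.49 (right). Most Samsn1 values were at background, and with dim values raised to the floor the r of the right pair was 0.26.

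The leukocyte markers, which include cells known to make BAFF, were followed beside Tnfsf13b. Cd68, Csf1r and Itgam were well above background in all 65 samples, Cd14 in 64, both P0 samples included, and Lyz2 in 62, 1 P0 sample included, while Ptprc, Adgre1 and Tyrobp were at background at P0 and passed in 12, 18 and 36 samples. The summed signal of the 8 markers was 2.43 and 3.03 at P0, 3.19 to 6.30 at P1, and from P2 on between 2.38 and 9.12. Deviations of Tnfsf13b correlated with it at r = 0.16 (permutation test, adjusted p = 0.309) and those of Ppef1 at r = 0.34 (adjusted p = 0.0656). With the fibroblast sum the values were r = 0.22 for Tnfsf13b (adjusted p = 0.309) and r = 0.35 for Ppef1 (adjusted p = 0.117, rho = 0.32 with adjusted p = 0.122). The B cell markers Cd79a and Ms4a1 were well above background in 0 of 65 samples, and Cd79b in 4. Among endothelial markers Kdr passed in all 65 samples, Pecam1 in 3, Cdh5 in 2 and Tek in 0. Of the leukocyte list 0 of 8 tested rose from P0 to P6 in KPT and K-LM, and 3 of 8 in T-LM (Ptprc, Tyrobp and Cd14), where Cd79b rose too. No endothelial marker passed from P0 to P6 in any route, and of the renal epithelial markers Cdh16 rose in KPT. The part of other cells in the rise of Tnfsf13b and Ppef1 was not tested further.

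Of 11 relatives and partners of the 4 genes, 10 were on the array and 5 or 6 were bright enough to test. From P0 to P6, 2 rose in each kidney-injected route and 3 in T-LM, and 0 fell. Itgb3, a partner of the alpha v chain in a periostin-binding integrin, rose in all 3 routes, by 4.39 ± 0.44, 5.1 ± 0.25 and 4.59 ± 0.47 (SE, largest adjusted p = 4.31e-06), and it rose already at P1 in each. Its P0 arrays were at background, and the P6 bounds are at least 5.40-fold, 8.85-fold and 9.21-fold. Sash1, an adaptor related to Samsn1, rose by 2.97 ± 0.64 (adjusted p = 0.0074), 3.27 ± 0.53 and 4.50 ± 0.67 (at least 1.94-fold, 2.38-fold and 5.03-fold). Tgfbi, which encodes a secreted protein of the periostin family, rose in T-LM by 3.56 ± 0.42 (adjusted p = 6.02e-06, at least 2.56-fold) and was at -0.20 ± 1.56 in KPT and 0.33 ± 0.64 in K-LM. In the comparison of routes at P6 it was higher in T-LM than in KPT by 3.62 ± 0.35 (adjusted p = 6.41e-07), and K-LM was lower than T-LM (-3.58 ± 0.47, adjusted p = 3.99e-05). The list's median change was 0.10 for KPT, 1.76 for T-LM and 0.36 for K-LM, beside medians of -0.01, 0.00 and 0.00 over all tested probes.

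Of the VHL and HIF machinery 7 genes were followed, namely Vhl, Hif1a, Epas1, Arnt, Egln1, Egln2 and Hif1an, of which 6 were tested in KPT and 7 in the other routes. Against P0, 0 rose or fell at P1 or P6 in limma, while in K-LM Egln2 fell at P4 (-0.86 ± 0.21, adjusted p = 0.00668) and P5 (-0.79 ± 0.20, adjusted p = 0.00419) and Hif1an fell at P5 (-1.73 ± 0.45, adjusted p = 0.00586). Egln2 encodes a HIF prolyl hydroxylase and Hif1an a HIF asparaginyl hydroxylase. The median change at P6 was -0.21, -0.29 and 0.18 (KPT, T-LM and K-LM). At P6 Vhl was at -0.21 ± 0.20, -0.21 ± 0.26 and 0.07 ± 0.27 relative to P0 in KPT, T-LM and K-LM, Hif1a at 0.12 ± 0.34, 0.75 ± 0.38 and 0.89 ± 0.41, and Epas1 at -0.27 ± 0.17, -0.22 ± 0.14 and 0.25 ± 0.18 (SE, adjusted p = 0.198 to 0.936). The study also measured these genes by qPCR in P0 and P6 cells. It reported lower Vhl in every P6 group, higher Epas1 mainly in K-LM and T-LM, and slightly lower Hif1a in KPT. In the 6 comparisons of P1 and P6 with P0, 4 of 40 tests of these genes had an unadjusted p under 0.05, of which 3 were of Hif1a. Over all tested probes 5890 of 21576 had such a p at KPT P1 and 5925 of 23023 at T-LM P1. At P6 the numbers were 3818 of 20688 (KPT), 4924 of 21055 (T-LM) and 4704 of 21974 (K-LM). None is given for K-LM P1, which had 1 sample. At P1 Hif1a was at 1.24 ± 0.34 in KPT (adjusted p = 0.0226), 1.23 ± 0.43 in T-LM (adjusted p = 0.0758) and 0.89 ± 0.55 in K-LM (adjusted p = 0.411), and from P1 to P6 it fell by 1.12 in KPT (SE 0.26, adjusted p = 0.00414).
Of 12 established HIF targets, 1 of 12 tested rose from P0 to P6 in KPT, while T-LM had 2 of 11 and K-LM 0 of 11, with medians of -0.09, 0.16 and 0.70. More rose at other passages, with 3 of 12 at KPT P1, 3 of 11 at both T-LM P4 and K-LM P4, and 5 of 11 at both T-LM P5 (median 1.05) and K-LM P5 (median 1.10). Slc2a1, a glucose transporter, Car9, Car12, Egln3 and Adm were the 5 in each of these P5 groups. Between the routes at P6, 4 of 10 tested targets were higher in K-LM than in KPT (Slc2a1, Egln3, Bnip3 and Ankrd37). Egln3 and Ankrd37 were higher in T-LM than in KPT, Slc2a1 and Adm in K-LM than in T-LM, and 0 were lower. Of the machinery only Egln1 passed, higher in K-LM than in KPT. The shares of all probes, in either direction, were 16.1% (K-LM and KPT), 11.6% (T-LM and KPT) and 11.9% (K-LM and T-LM). Over the 6 comparisons of P1 and P6 with P0, 34 of 68 tests of HIF targets had an unadjusted p under 0.05. The numbers over all tested probes are those given above for the machinery. Car9, carbonic anhydrase 9, rose in KPT by 3.24 ± 0.43 (adjusted p = 8e-05, at least 3.78-fold) and in T-LM by 3.73 ± 0.38 (adjusted p = 1.08e-06, at least 5.33-fold), while its K-LM change of 2.36 ± 0.61 did not pass (adjusted p = 0.013). Car9 also rose at P1 in all 3 routes, the passage at which Tnfsf13b and Ppef1 rose.

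The genes whose group means over the 19 groups were most like those of the members were sought among 12890 symbols. For Ppef1 they were Stbd1 (r = 0.96), Plac9a (0.95) and Anxa8 (0.93), and for Tnfsf13b Stbd1 (0.90), Tead2 (0.89) and Anxa8 (0.89). Stbd1 encodes a glycogen-binding protein, Anxa8 an annexin and Tead2 a transcription factor of the Hippo pathway, and 2 of the 3 nearest genes were thus the same for both. For Postn they were Thbs2 (0.96), Loxl1 (0.95) and Aldh1l1 (0.95), of which Thbs2 encodes a matrix glycoprotein and Loxl1 a lysyl oxidase that cross-links elastic fibres. For Samsn1 they were Bin2 (0.81), Asb9 (0.78) and Piwil2 (0.78), which were well above background in only 13, 6 and 5 samples. Across the 65 single samples the same correlations were 0.83 for Tnfsf13b with Stbd1, 0.90 for Ppef1 with Stbd1, 0.94 for Postn with Thbs2 and 0.61 for Samsn1 with Bin2. These values are descriptions, since the samples share P0 and the passages. Those of Tnfsf13b and Ppef1 include P0, where both were at background and far below the other groups.

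The index of RNA integrity, the mean level of 12 long mRNAs minus that of 73 ribosomal protein mRNAs, moved with passage beside these genes. Its mean was -6.83 at P0 and between -6.07 and -5.57 at P1, the passage at which Tnfsf13b, Ppef1 and part of the Postn samples were up. At P2 and P3 it was between -8.28 and -7.23, when Postn was at background and the other pair was high, at P4 between -7.07 and -6.19, and at P6 between -6.69 and -6.45. At P5 it was again low, at -7.41 (KPT), -7.61 (T-LM) and -8.45 (K-LM), yet Postn was well above background in 5 of the 15 P5 samples and had its highest level of the series in KPT P5 replicate 1 (-1.55). Its part in the Postn pattern was not tested. With the index as a covariate the P6 rises of Tnfsf13b and Ppef1 passed in all 3 routes.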

How the data were processed

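The authors deposited the scanner output of each single-colour (red) array and a table of normalised values. The deposited intensities are background-subtracted red processed signals per spot. The deposited log2 values were used only as an alternative, and their normalisation is not given in full in the sources used here. Levels were log2 of the intensity minus each array's 75th percentile over the 11287 probes well above background on all 70 arrays, after control spots and outlier spots were left out and spots of a probe averaged. Probes were named through RefSeq accessions (GRCm38.p6). Probes that passed background on fewer than 2 arrays in a fit were dropped from it. Tests used limma 3.58.1 with statmod 1.5.0 (R 4.3.3), lmFit and eBayes with Benjamini-Hochberg adjustment over all tested probes and a threshold of 0.01. Fits with K-LM and comparisons at P6 used first and repeat arrays, with a late slide term and duplicateCorrelation over RNA samples. Those of KPT and T-LM used first arrays. Scripts were tested on simulated data. Folds given as "at least" set the dim group at the lowest signal well above background on each array. The named genes were the 4 members, genes of fixed lists that passed or define a list, and the 3 most alike by group means. The members and lists were chosen with earlier results of these data known. Alternatives covered scaling, background correction (on median signals, since no mean red signal was in the files), a floor on dim values, filters, slide, RNA index, replicate block and leaving out samples. Correlations averaged repeat arrays and used 100000 permutations. Python 3.11.15 with numpy 2.4.6, pandas 2.3.3 and matplotlib 3.10.9 did the rest. The number of arrays limits the precision. Some list genes are not reported here.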

Additional observations from a re-analysis of the deposited data

Results flagged for a closer look

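Among the Postn levels of the 6 T-LM P5 samples, replicate 1 stood apart at -2.19, the sample with the highest fibroblast marker sum of all. Among the 5 KPT P6 samples Tnfsf13b of replicate 1 stood apart at -3.01, although by less than 0.2 log2 units from the others. On its repeat array it read -2.82, beside -2.65 and -2.83 on those of replicates 2 and 4. Chance sets apart about 1 sample in 20 groups of this kind, and 36 groups were examined. The Samsn1 change from P0 to P6 differed between routes, since K-LM P6 exceeded KPT P6 by 2.61 in limma. All K-LM P6 arrays lay on the late slide, for which the fit has a term.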

How the results depend on the processing

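Tnfsf13b and Ppef1 rose from P0 to P6 in all 3 routes under every alternative run, by 2.28 to 5.69 and 3.43 to 6.22. Over the changes of single genes, 1133 of 1213 alternative values kept direction and side of the threshold, 26 lost it, 16 gained it and 38 changed sign; the cause was not tested for any of these. With dim values raised to a floor, Postn at KPT P6 was -0.28, Tnfsf13b at KPT P1 -0.10, Samsn1 at K-LM P1, P5 and P6 -0.998, -0.13 and 0.58, Postn at K-LM P6 0.97, Tnfsf13b from K-LM P1 to P6 0.18, Samsn1 in T-LM against KPT at P6 -0.16, and Tnfsf13b and Ppef1 in K-LM against T-LM at P6 0.34 and 0.17. The genes called were then 0 at KPT P1 and 1 at T-LM P1, T-LM P2, T-LM P3 and K-LM P2, and deviations correlated at 0.43 (Tnfsf13b and Ppef1), -0.10 (Ppef1 and Samsn1) and 0.26 (Samsn1 and Postn). With normexp background and quantile normalisation Samsn1 was 0.42 at KPT P6, 0.23 at KPT P1 and 0.19 from KPT P1 to P6, and with the deposited values 0.51, 0.26 and 0.25, with Ppef1 in K-LM against KPT at P6 at -0.013. Both called 1 gene in T-LM against KPT and 1 in K-LM against T-LM at P6, and normexp also 1 from K-LM P1 to P6. With all groups in 1 model Samsn1 was 0.29 at KPT P6 and 0.37 at KPT P1, and Postn at K-LM P6 3.44 without a call. In that model 2 genes (Ppef1 and Samsn1) were called from T-LM P1 to P6, as also with no filter. Without the late slide term Postn at K-LM P6 was 2.50, Samsn1 at K-LM P1 -0.38, and 1 gene was called from K-LM P1 to P6, in T-LM against KPT and in K-LM against T-LM. On the late slide alone Samsn1 and Postn at KPT P6 were 1.30 and 2.59, both called. With the RNA index Samsn1 at KPT P1 was 0.51, and 1 gene was called from KPT P1 to P6 and 2 from T-LM P1 to P6. With the percentile over all probes Samsn1 at K-LM P1 was -0.31, Tnfsf13b from K-LM P1 to P6 0.13 and in K-LM against T-LM at P6 0.087. With KPT P6 samples that have a repeat array, chosen after seeing the data as was the floor on correlations, Postn at K-LM P6 was 3.44 without a call. Over P3 to P6 alone deviations correlated at -0.35 (Tnfsf13b and Samsn1), -0.033 (Tnfsf13b and Postn) and -0.052 (Ppef1 and Postn). Same-numbered samples share only a number. With the replicate block Samsn1 was 0.30 at KPT P6 and 0.19 at KPT P1, Postn 5.53 at T-LM P1 and 3.28 at K-LM P6, Samsn1 1.83 at K-LM P5 (call lost), Tnfsf13b 0.042 from K-LM P1 to P6, and Ppef1 -0.023 in K-LM against KPT at P6. Leaving out each replicate gave -0.47 to 0.21 for Samsn1 at KPT P1, 3.10 to 3.67 for Postn at K-LM P6, -0.13 to 0.59 for Samsn1 at K-LM P1, -0.21 to 0.78 for Postn in T-LM against KPT, -0.076 to 0.15 for Ppef1 in K-LM against KPT, -0.23 to 0.14 for Tnfsf13b in K-LM against T-LM, and 1 to 2 genes called at KPT P1. Matching by transcript accession gave 1 probe for each gene, so another probe was not tried. It left 27655 of the 55681 probes without a gene symbol. Samsn1, and all genes at P0, lay at background, where levels have no firm order.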
